A study of Arabidopsis thaliana with 8 samples.

Results

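The transcripts described here come from 10 genes of the plant cell cycle, most of them of its last part. These are the A-type cyclins CYCA1-1 (AT1G44110), CYCA1-2 (AT1G77390), CYCA2-3 (AT1G15570) and CYCA3-4 (AT1G47230), the B-type cyclins CYCB2-3 (AT1G20610), CYCB2-4 (AT1G76310) and CYCB3-1 (AT1G16330), the cyclin-dependent kinases CDKB2-1 (AT1G76540) and CDKB2-2 (AT1G20930), and the kinesin NACK1 (AT1G18370). They were taken as named loci, with no threshold on their values, from the 9536 loci for which the table used here holds values. All 10 were present and all 10 passed the filter on low counts. In the triple mutant asap, 4 of the 10 transcripts rose against Col0, with CYCB2-4 moving most at 4.05-fold, and 1, CYCA1-2, fell to 0.237 of its Col0 level. In the same comparison 25.6% of all genes tested were called higher and 26.0% lower. By their number, the 5 calls among the members do not stand out from this background.

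RNA was sequenced from whole Arabidopsis thaliana seedlings grown for 11 days at 22 °C in 16 h light and 8 h dark, in 4 genotypes with 2 libraries each. Col0 is the wild-type Columbia accession, sr45 carries a T-DNA insertion in SR45 (allele sr45-1), sap18sr45 carries insertions in SAP18 and SR45, and asap is homozygous for insertions in SAP18, SR45 and ACINUS. By their labels all 3 mutants share the sr45 insertion, each gene is represented by a single insertion line, and asap came from crosses of double mutants. SR45, SAP18 and ACINUS are subunits of the ASAP complex, which joins the exon-junction complex on spliced messenger RNA. Whether the replicates were grown as separate cultures is not stated in the labels, and the p-values then cover the spread between libraries, which may be technical.

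In plants, B2-type kinases and the A1- and B-type cyclins accumulate as cells pass from G2 into mitosis, and their transcripts are therefore found mainly in dividing cells of meristems and young organs. A cyclin binds and switches on its kinase, the pair drives the cell into mitosis, and the cyclin is then destroyed through the anaphase-promoting complex. Many of these genes share a promoter motif, the mitosis-specific activator element with the core AACGG, which is bound by MYB3R transcription factors. NACK1 acts at the end of the same programme, when it activates a kinase cascade that expands the phragmoplast, the structure that builds the new cell wall.

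The 10 genes lie on chromosome 1, and their positions are given with their values in TAIR10.1 coordinates. The core was searched on both strands in the 300 bases before each annotated gene start (RefSeq annotation, assembly TAIR10.1). At least 1 match was present in 7 of 10 genes, against 23.4% of the 27443 protein-coding genes searched in the same way. At least 2 matches were present in 4 of 10, against 4.53% of all, and CYCB2-3 was the 1 gene with 3, a number reached by 0.958% of all. CYCA3-4, CYCB3-1 and CDKB2-1 had no match in this window. For CYCB3-1 and CDKB2-1 the window overlaps a neighbouring gene, AT1G16340 and AT1G76550 respectively. The E2F site, typical of S phase genes, was searched on either strand in only 2 forms, TTTCCCGC and TTTGGCGC. These were found in 0 of 10, against 1.07% of all genes. Other forms were not searched, and the CYCA1-2 window printed below holds tttcgcgc, which differs from TTTCCCGC in 1 letter. A match is a description of the letters, not evidence that a factor binds.

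The upstream windows of 5 genes are printed here, those of the members with the clearest changes and a match (CYCA1-1, CYCB2-4, NACK1 and CYCA1-2) and that of CYCB2-3, which holds most matches. Each reads 5′ to 3′ on the strand of its gene, the minus strand in all 5, and ends at the base before the annotated gene start. In TAIR10.1 the windows lie at chr1:16777353-16777652 for CYCA1-1, chr1:28630790-28631089 for CYCB2-4, chr1:6324379-6324678 for NACK1, chr1:29084286-29084585 for CYCA1-2 and chr1:7137829-7138128 for CYCB2-3. Capitals mark AACGG or its reverse complement CCGTT.
CYCA1-1: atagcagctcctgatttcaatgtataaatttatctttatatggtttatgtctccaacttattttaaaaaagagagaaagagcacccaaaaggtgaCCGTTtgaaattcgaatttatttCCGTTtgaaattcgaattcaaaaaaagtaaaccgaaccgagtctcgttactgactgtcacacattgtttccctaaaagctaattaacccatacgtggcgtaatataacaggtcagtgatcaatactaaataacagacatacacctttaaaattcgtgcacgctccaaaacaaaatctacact
CYCB2-4: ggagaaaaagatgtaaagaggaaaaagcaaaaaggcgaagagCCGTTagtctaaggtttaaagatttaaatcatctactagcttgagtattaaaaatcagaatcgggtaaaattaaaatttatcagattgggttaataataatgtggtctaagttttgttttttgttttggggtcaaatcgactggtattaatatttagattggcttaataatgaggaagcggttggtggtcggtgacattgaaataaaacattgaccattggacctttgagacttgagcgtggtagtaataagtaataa
NACK1: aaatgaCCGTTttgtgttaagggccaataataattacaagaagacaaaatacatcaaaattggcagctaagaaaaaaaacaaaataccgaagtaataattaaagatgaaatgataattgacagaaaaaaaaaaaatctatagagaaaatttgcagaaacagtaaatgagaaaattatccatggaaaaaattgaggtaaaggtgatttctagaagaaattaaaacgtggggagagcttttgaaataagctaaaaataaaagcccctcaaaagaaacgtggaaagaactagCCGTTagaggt
CYCA1-2: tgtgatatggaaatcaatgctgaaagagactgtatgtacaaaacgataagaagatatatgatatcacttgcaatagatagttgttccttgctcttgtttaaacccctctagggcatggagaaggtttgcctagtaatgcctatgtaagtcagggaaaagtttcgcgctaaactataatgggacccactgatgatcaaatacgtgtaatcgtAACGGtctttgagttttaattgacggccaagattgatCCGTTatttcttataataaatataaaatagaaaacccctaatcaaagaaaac
CYCB2-3: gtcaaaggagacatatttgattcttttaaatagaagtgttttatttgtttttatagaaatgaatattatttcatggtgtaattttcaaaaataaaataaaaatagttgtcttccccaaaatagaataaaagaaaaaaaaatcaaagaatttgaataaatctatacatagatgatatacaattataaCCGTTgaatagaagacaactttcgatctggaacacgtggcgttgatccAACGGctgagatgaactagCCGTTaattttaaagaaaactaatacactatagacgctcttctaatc
Counted from the gene start, the 2 matches of CYCA1-1 began at -205 and -182, both on the opposite strand, and the same letters, tgaaattcgaatt, follow each. Those of CYCB2-3 began at -114, -66 and -47. The 2 of CYCA1-2 began at -89 and -52, the 1 of CYCB2-4 at -258, and the 2 of NACK1 at -294 and -11.

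**Figure D1:**
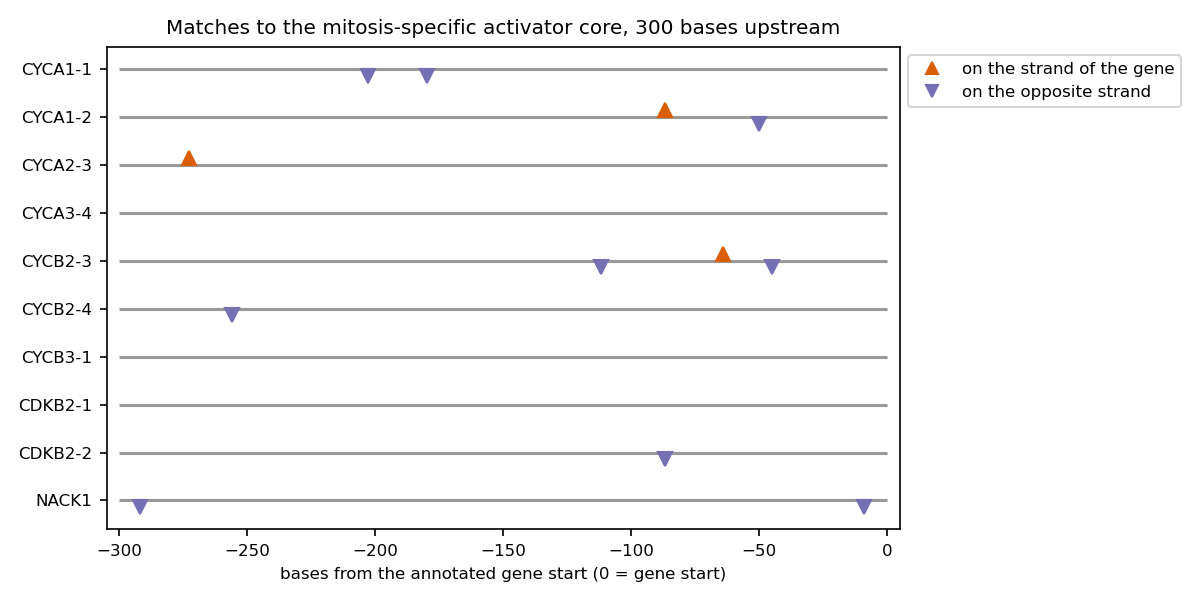
Position of each match to the AACGG core in the 300 bases before the annotated start of each of the 10 genes (x axis, bases from the gene start; upward triangles, strand of the gene; downward triangles, opposite strand; each drawn at the middle base of the match). CYCB2-3 has 3 matches, CYCA1-1, CYCA1-2 and NACK1 have 2 each, and CYCA3-4, CYCB3-1 and CDKB2-1 have none.

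Total counts per library over the loci of the table ran from 1295244 in sr45 replicate 1 to 4052420 in Col0 replicate 1, so that 3 counts correspond to between 0.74 and 2.316 CPM, counts scaled to the library total. SR45 itself (AT1G16610) served as the check of the lines. Its level was 22.6 ± 2.29 cRPKM in Col0, 5.80 ± 1.15 in sr45, 14 ± 0.559 in sap18sr45 and 5.04 ± 1.68 in asap (mean ± SD, n = 2), where cRPKM is an RPKM computed on the mappable length of the gene. It was lower than in Col0 in all 3 mutants, least so in sap18sr45 (edgeR quasi-likelihood test, adjusted p between 6.77e-11 and 0.00104). In the libraries labelled sap18sr45, SR45 was at 0.592 of Col0 and 2.39-fold higher than in sr45, in 4 of 4 pairs of libraries (edgeR, adjusted p = 0.000234), so a loss of SR45 transcript as deep as in sr45 was not seen in them. Comparisons that involve sap18sr45 carry this difference in SR45 along with the SAP18 insertion. Root markers were low in Col0, with a summed level of 2.66 to 3.19 cRPKM over 4 genes, and stood at 40.92 to 47.05 in asap. Most of the asap sums was 1 gene, PER3, with 43.09 of 47.05 and 30.12 of 40.92 cRPKM. Green leaf markers summed to between 57640.79 and 66963.25 cRPKM in every library. Within that sum genes moved in opposite directions, as counted below: in asap RBCS-1A was 1.21-fold higher and LHCB2.2 stood at 0.43 of Col0. The flower marker AP1 had at most 1 count. SEP3, another flower marker, had 2.1 cRPKM in Col0 and 1.08, 1.29 and 1.08 in sr45, sap18sr45 and asap. Its log2 differences of -0.89, -0.76 and -1.14 were not called (edgeR, adjusted p = 0.288, 0.322 and 0.0977).

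All 10 members were sparse transcripts, with 2 to 192 counts in a library. In Col0, CYCA2-3 had the highest level per length at 6.61 ± 0.0141 cRPKM, followed by CYCA3-4 (5.38 ± 0.240) and CDKB2-2 (4.44 ± 0.389), and CYCB3-1 the lowest at 0.490 ± 0.127. In asap the order differed: CYCA2-3 was still first at 9.22 ± 2.21 cRPKM, CDKB2-1 was next at 7.22 ± 0.410, CYCB2-4 stood at 6.74 ± 1.86 compared with 1.42 ± 0.573 in Col0, and CYCA1-2 was last at 0.230 ± 0.0990. Summed over the 10 genes the level was 29.46 and 27.55 cRPKM in the Col0 libraries, 29.62 and 38.31 in sr45, 39.02 and 40.18 in sap18sr45, and 55.08 and 47.02 in asap. The sums of sap18sr45 and asap lay above both Col0 libraries, whereas sr45 replicate 1 almost equalled Col0. In whole seedlings, a change in the number of dividing cells and a change in RNA per cell cannot be told apart. On the cRPKM scale the median over all 5261 genes tested was itself higher by 0.14 (log2) in asap than in Col0, so the log2 changes below come from the count model, in which the median change over all genes was within 0.01 of zero in every comparison.

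**Figure D2:**
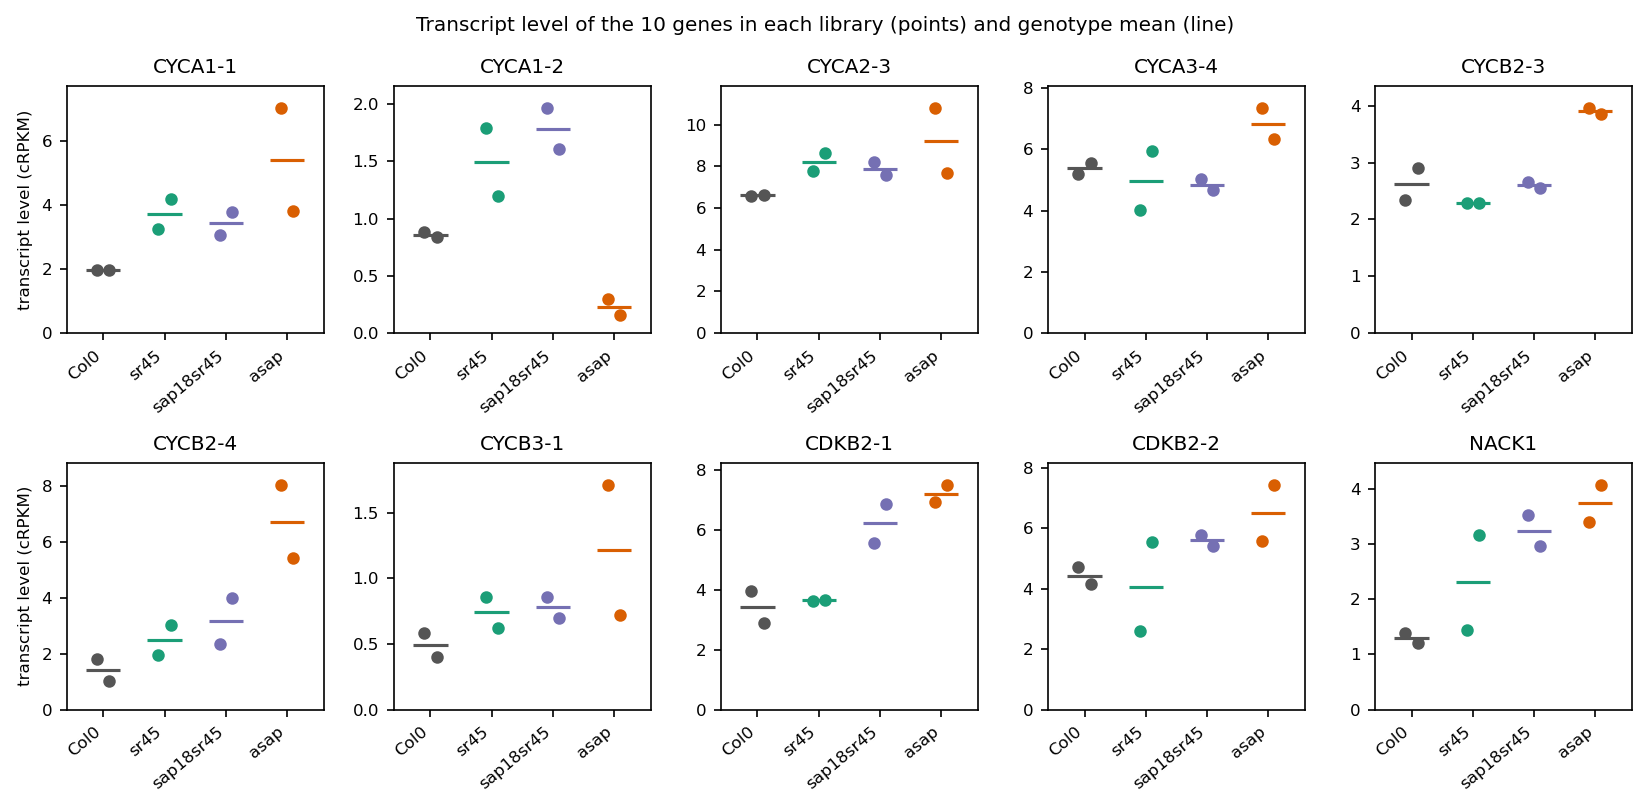
Transcript level of each of the 10 genes in cRPKM (y axis, each panel with its own scale from 0) in the 4 genotypes (x axis); points are the 2 libraries of a genotype and lines their mean. In 9 of the 10 genes both asap libraries are above both Col0 libraries, a pattern shown by 45.2% of all genes tested. CYCA1-2 has both asap libraries, 0.30 and 0.16, below all others.

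Against Col0, 2 of 10 members rose in sr45 and 0 fell, in a comparison where 15.2% of all genes tested were called higher and 16.5% lower. In sap18sr45 again 2 of 10 rose and 0 fell, against 12.9% of all genes called higher and 14.2% lower. In asap 4 of 10 rose and 1 fell, with the background given above. These counts are small and, for sr45 and sap18sr45, close to the background. In asap, calls in either direction took in 5 of 10 members and 2713 of the 5261 genes tested, so their number does not stand out either. The median log2 change over the 10 members was 0.40 in sr45, 0.66 in sap18sr45 and 0.66 in asap. Judged by the levels alone, 6 of 10 members in sr45, 8 of 10 in sap18sr45 and 9 of 10 in asap had both mutant libraries above both Col0 libraries, a pattern shown by 32.7%, 38.6% and 45.2% of all genes tested. The 3 comparisons share the Col0 libraries.

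**Figure D3:**
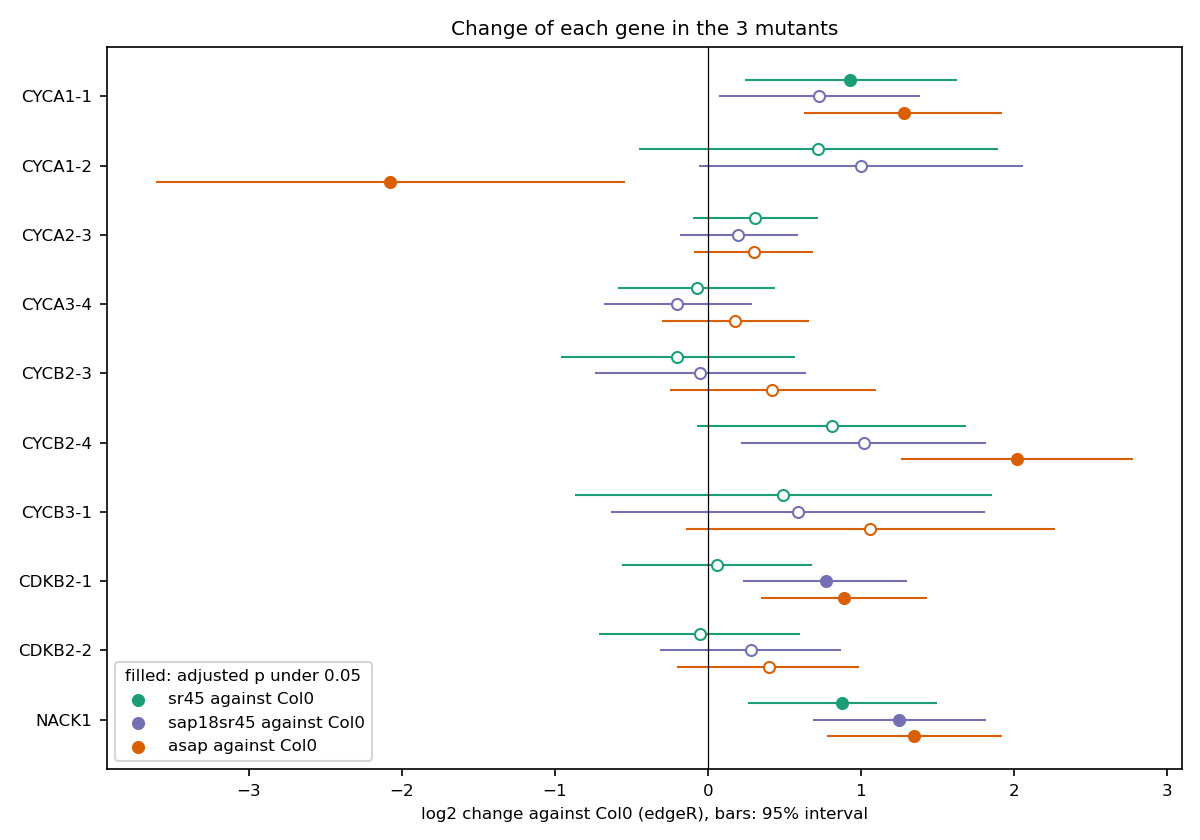
Log2 change of each of the 10 genes against Col0 in sr45, sap18sr45 and asap (x axis; edgeR estimate with its 95% interval; filled points have an adjusted p under 0.05). CYCB2-4 in asap is farthest to the right at 2.02 and CYCA1-2 in asap farthest to the left at -2.08.

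The A1-type cyclins moved in opposite directions in asap. CYCA1-1 (chr1:16774765-16777352, minus strand, 8 exons), a cyclin of G2 and mitosis, had 1.97 and 1.96 cRPKM in the Col0 libraries, 3.26 and 4.18 in sr45, 3.08 and 3.78 in sap18sr45, and 7.02 and 3.83 in asap. Every mutant library lay above both Col0 libraries, and the 2 asap libraries were far apart. It was higher by 1.28 ± 0.31 (log2, SE) in asap, or 2.42-fold (edgeR, adjusted p = 0.00125). Without asap replicate 1 the difference was 0.80 (edgeR, adjusted p = 0.0427) and without asap replicate 2 it was 1.65. In sr45 it was higher by 0.93 ± 0.34 (edgeR, adjusted p = 0.0363). That call ended when Col0 replicate 1 (edgeR, adjusted p = 0.174), Col0 replicate 2 (0.14), sr45 replicate 2 (0.297) or either sap18sr45 library (0.0536 and 0.0542) was left out, and in DESeq2 (0.113). The difference in sap18sr45, 0.73 ± 0.32, missed the threshold (edgeR, adjusted p = 0.0964) and passed it when asap replicate 1 (0.0386) or asap replicate 2 (0.0349) was left out. No difference between mutants passed for CYCA1-1. The one of asap from sap18sr45 had a 95% interval of -0.06 to 1.16 and that of asap from sr45 one of -0.30 to 0.99.

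CYCA1-2 (chr1:29081654-29084285, minus strand, 10 exons), also known as TARDY ASYNCHRONOUS MEIOSIS, is best known for driving the divisions of meiosis. It had 17 and 11 counts in the Col0 libraries, 11 and 13 in sr45, 36 and 19 in sap18sr45, and 3 and 2 in asap. As levels these were 0.88 and 0.84 cRPKM in Col0, 1.79 and 1.2 in sr45, 1.96 and 1.61 in sap18sr45, and 0.30 and 0.16 in asap. The asap libraries were the lowest of the 8, and those of sr45 and sap18sr45 all lay above Col0. In asap the transcript fell by 2.08 on the log2 scale (SE 0.75, edgeR, adjusted p = 0.0221), and the ratio of summed counts, scaled by library size, was 0.255 with an exact 95% interval of 0.0768 to 0.668 that covers counting error only. The call against Col0 ended without Col0 replicate 1 (edgeR, adjusted p = 0.102), without Col0 replicate 2 (0.0761), without asap replicate 2 (0.108, log2 change -1.69) and in DESeq2 (0.0598). Against the other mutants the gap was wider. Relative to sap18sr45 the log2 difference was -3.07 ± 0.69 (edgeR, adjusted p = 0.000991) and the count ratio 0.122 (0.0382 to 0.303). Relative to sr45 these were -2.80 ± 0.75 (edgeR, adjusted p = 0.0059) and 0.158 (0.0471 to 0.422). Both of these calls held with any 1 library left out, with adjusted p of at most 0.0314 and 0.0401. The differences of sr45 and sap18sr45 from Col0, 0.72 ± 0.57 and 1.0 ± 0.52, missed the threshold (edgeR, adjusted p = 0.373 and 0.164).

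Other transcripts of meiosis were too sparse to be tested beside CYCA1-2. SDS, a meiosis-specific cyclin, had 1 to 6 counts in every library, and ASY1, a protein of the meiotic chromosome axis, had 0 to 3. Neither passed the filter on low counts, and ASY1 had 0 counts in both asap libraries.

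The other A-type cyclins were not called in any mutant. CYCA2-3 (chr1:5361865-5365559, plus strand, 11 exons), which holds cells back from endoreduplication, had 6.60 and 6.62 cRPKM in Col0, 7.78 and 8.65 in sr45, 8.21 and 7.57 in sap18sr45, and 10.78 and 7.66 in asap. All 6 mutant libraries were above Col0, yet the log2 differences of 0.31 ± 0.20, 0.20 ± 0.19 and 0.30 ± 0.19 did not pass (edgeR, adjusted p = 0.26, 0.47 and 0.186). Their 95% intervals reached from -0.18 at the lowest to 0.72 at the highest. Only in asap did a left-out library create a call, when replicate 2 was absent (log2 change 0.52, edgeR, adjusted p = 0.0266). IAA5 (AT1G15580), an auxin response repressor gene, overlaps CYCA2-3 on the opposite strand and rose in asap by 2.16 ± 0.57 (edgeR, adjusted p = 0.00233). The sources used here do not say if reads were counted by strand, and the part of such reads in the CYCA2-3 values was not tested.

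CYCA3-4 (chr1:17306574-17308848, plus strand, 7 exons), an A3-type cyclin of dividing root and shoot tissue, had 5.21 and 5.55 cRPKM in Col0, 4.02 and 5.95 in sr45, 5.03 and 4.68 in sap18sr45, and 7.34 and 6.35 in asap. The sr45 libraries bracketed Col0, those of sap18sr45 were below it and those of asap above it. The log2 differences were -0.07 ± 0.25, -0.20 ± 0.24 and 0.18 ± 0.23 (edgeR, adjusted p between 0.543 and 0.866), and a change beyond 0.68 in either direction lay outside all 3 intervals. NRAMP2 (AT1G47240), which overlaps it on the opposite strand, rose by 0.67 ± 0.18 in asap (edgeR, adjusted p = 0.00225).

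Among the B-type cyclins, CYCB2-4 (chr1:28627694-28630789, minus strand, 12 exons) showed the widest range of levels between genotypes. Its libraries had 1.82 and 1.01 cRPKM in Col0, 1.97 and 3.03 in sr45, 2.34 and 4.01 in sap18sr45, and 8.05 and 5.42 in asap. Both asap libraries exceeded the other 6, and no mutant library fell within the range of Col0. The rise in asap, 2.02 ± 0.37 on the log2 scale, was the largest of the 10 genes (edgeR, adjusted p = 4.49e-05). It kept its call in all 18 alternative settings, and with any 1 library left out the log2 change stayed between 1.70 and 2.51. The difference in sap18sr45, 1.02 ± 0.39, stood at the threshold (edgeR, adjusted p = 0.0521) and passed it in 7 of 18 settings, among them those without sap18sr45 replicate 1 (0.0421), asap replicate 1 (0.0191) or asap replicate 2 (0.018). In sr45 it was 0.81 ± 0.43 (edgeR, adjusted p = 0.161).

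CYCB2-4 also separated asap from the other mutants. It was higher than in sap18sr45 by 1.0 ± 0.34 (edgeR, adjusted p = 0.025) and higher than in sr45 by 1.21 ± 0.38 (edgeR, adjusted p = 0.0174). The first call ended without sap18sr45 replicate 1 (log2 change 0.62, edgeR, adjusted p = 0.352) or asap replicate 1 (0.72, adjusted p = 0.108), and the second without sr45 replicate 1 (0.96, adjusted p = 0.133) or asap replicate 1 (0.90, adjusted p = 0.0701). In DESeq2 neither passed (adjusted p = 0.123 and 0.0694).

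CYCB2-3 (chr1:7134659-7137828, minus strand, 12 exons), the other B2-type cyclin among the members, had 2.34 and 2.90 cRPKM in Col0, 2.28 in both sr45 libraries, 2.65 and 2.56 in sap18sr45, and 3.95 and 3.86 in asap. The asap libraries were above all others, but on 13 to 45 counts the difference in asap, 0.42 ± 0.33, did not pass (edgeR, adjusted p = 0.293, 95% interval -0.25 to 1.1). Those in sr45 and sap18sr45 were -0.20 ± 0.37 and -0.05 ± 0.33. This gene has 3 matches to the AACGG core, the most of the 10, and CYCB2-4 has 1. Of the stretches of 50 bases in CYCB2-3, 17.3% also occur in AT1G20590, named CYCB2-5 in the table and listed at 0 in every genotype, so reads from the shared stretches cannot be assigned with certainty.

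CYCB3-1 (chr1:5582387-5587461, minus strand, 23 exons), a B3-type cyclin linked to the meiotic spindle, had the lowest mean level of the 10 over all libraries (0.806 cRPKM), on 7 to 23 counts. Its levels were 0.58 and 0.40 cRPKM in Col0, 0.86 and 0.62 in sr45, 0.86 and 0.70 in sap18sr45, and 1.71 and 0.72 in asap. All mutant libraries lay above Col0, and asap replicate 1 stood well apart from the rest. The difference in asap was 1.06 ± 0.59 (edgeR, adjusted p = 0.134), and 1.56 without asap replicate 2 (adjusted p = 0.024). At this depth a change in sr45 or sap18sr45 was not detectable, with 95% intervals of -0.87 to 1.86 and -0.63 to 1.81.

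The B2-type kinases are particular to plants and are needed for cells to leave G2 and for the shoot meristem to stay organised. CDKB2-1 (chr1:28720328-28722550, minus strand, 8 exons) had 3.96 and 2.90 cRPKM in Col0, 3.62 and 3.68 in sr45, 5.58 and 6.88 in sap18sr45, and 6.93 and 7.51 in asap. Col0 and sr45 overlapped, and all 4 libraries labelled as carrying the SAP18 insertion were above all 4 others. It rose by 0.77 ± 0.26 in sap18sr45 (1.70-fold, edgeR, adjusted p = 0.0285) and by 0.89 ± 0.26 in asap (1.85-fold, adjusted p = 0.00597), and differed by 0.06 ± 0.30 in sr45 (adjusted p = 0.92). The call in sap18sr45 ended without Col0 replicate 1 (log2 change 1.01, edgeR, adjusted p = 0.0696), Col0 replicate 2 (0.59, 0.273), sap18sr45 replicate 1 (0.92, 0.0641) or sap18sr45 replicate 2 (0.62, 0.233), and in DESeq2 (0.133). That in asap ended only without Col0 replicate 2 among the libraries left out (log2 change 0.70, edgeR, adjusted p = 0.103).

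For CDKB2-1 the step between mutants was tested directly. The difference of sap18sr45 from sr45 was 0.71 ± 0.29 with a 95% interval of 0.12 to 1.3, but it did not pass over all genes (edgeR, adjusted p = 0.18). That of asap from sr45, 0.83 ± 0.29, passed (edgeR, adjusted p = 0.0329) and was lost in 11 of 18 settings, including those without any 1 library of Col0, sr45 or sap18sr45 or without asap replicate 2 (adjusted p between 0.0504 and 0.161). AT1G76530 overlaps CDKB2-1 on the opposite strand, and it was higher in sr45 (1.75 ± 0.42, edgeR, adjusted p = 0.00196) but not called in sap18sr45 or asap (0.19 ± 0.44 and 0.02 ± 0.46).

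CDKB2-2 (chr1:7292389-7294746, minus strand, 8 exons) had 4.71 and 4.16 cRPKM in Col0, 2.60 and 5.55 in sr45, 5.78 and 5.43 in sap18sr45, and 5.6 and 7.44 in asap. The lowest value of all 8, in sr45 replicate 1, came from 13 counts. The libraries of sap18sr45 and asap were above Col0, yet the differences of 0.28 ± 0.29 and 0.40 ± 0.29 did not pass (edgeR, adjusted p = 0.528 and 0.263), and in sr45 the difference was -0.05 ± 0.32. An increase as large as the 1.85-fold of CDKB2-1 in asap lies inside the 95% interval for CDKB2-2 (-0.20 to 0.99), so the 2 kinases were not shown to differ.

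NACK1 (chr1:6319450-6324378, minus strand, 15 exons), the cytokinesis kinesin also called HINKEL, was the member called in all 3 mutants. It had 1.39 and 1.21 cRPKM in Col0, 1.44 and 3.17 in sr45, 3.53 and 2.96 in sap18sr45, and 3.40 and 4.07 in asap. The 4 libraries of sap18sr45 and asap were each above the Col0 range, sr45 replicate 2 was too, and sr45 replicate 1 was next to Col0. It rose by 1.25 ± 0.28 in sap18sr45 (2.39-fold, edgeR, adjusted p = 0.000932) and by 1.35 ± 0.28 in asap (2.54-fold, adjusted p = 0.000201). With any 1 library left out both calls held, with log2 changes of 1.11 to 1.36 and 1.18 to 1.46. In sr45 the change was 0.88 ± 0.30 (edgeR, adjusted p = 0.0269), which became 0.12 without sr45 replicate 2 (adjusted p = 0.862) and also lost its call without Col0 replicate 1 (0.109) or Col0 replicate 2 (0.16) and in DESeq2 (0.0957). No difference between mutants passed for NACK1 (edgeR, adjusted p between 0.23 and 0.815), and that of asap from sr45 had a 95% interval of -0.11 to 1.04.

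Between mutants, 0 of 10 members were called in sap18sr45 against sr45, where 2.51% of all genes were called higher. At an unadjusted p under 0.05 edgeR gave 1, CDKB2-1, and DESeq2 called 0. In asap against sap18sr45, CYCB2-4 was higher and CYCA1-2 lower, with 15.4% of all genes called higher and 16.7% lower. In asap against sr45, CYCB2-4 and CDKB2-1 were higher and CYCA1-2 lower, with 12.7% of all genes called higher and 14.5% lower. The median log2 difference over the 10 members was 0.18, 0.25 and 0.46 in these 3 comparisons.

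Members varied together to a degree. Centred on each gene's own mean, the average of the 10 on the log2 scale was -0.29 and -0.43 in Col0, -0.18 and 0.11 in sr45, 0.16 and 0.18 in sap18sr45, and 0.37 and 0.09 in asap. Over the 8 libraries, 35 of the 45 pairs of members had a Pearson r above 0, with a median of 0.393 and a range of -0.871 to 0.878. NACK1 (r = 0.833), CYCA1-1 (0.828) and CYCB2-4 (0.794) followed the mean of the other 9 most closely, CYCA3-4 (0.2) and CYCB2-3 (0.246) least among those with a positive r, and CYCA1-2 ran the other way (-0.537). These are descriptions over 8 libraries, 2 for each genotype, and members of a library share its depth. Replicates of a genotype also differed: the median of replicate 2 minus replicate 1 was 0.25 in sr45, where 7 of 10 members were higher in replicate 2, and -0.32 in asap, where 3 of 10 were.

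**Figure D4:**
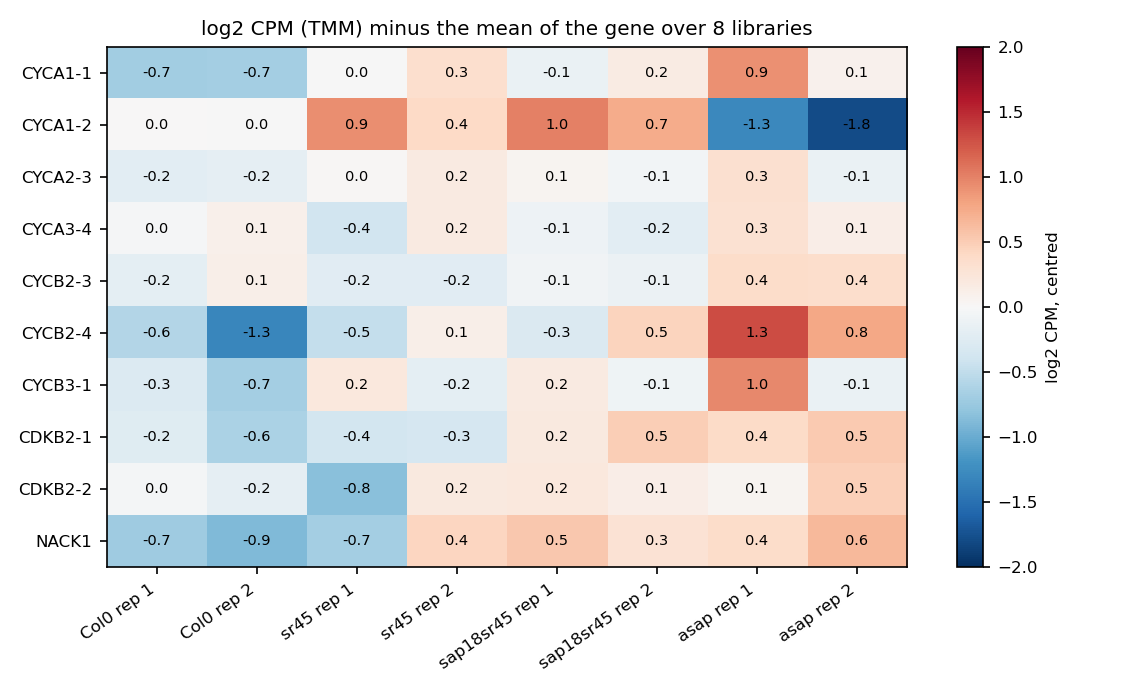
Log2 CPM of each of the 10 genes (rows) in each of the 8 libraries (columns) minus the gene's mean over the libraries; red is above and blue below that mean, and each cell prints its value. CYCA1-2 is lowest in the asap libraries, whereas CYCB2-4 is highest there.

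Outside the members and the cell cycle lists, the loci whose profile over the 8 libraries was most like the mean of the members were AT1G77840, annotated as a translation initiation factor (r = 0.962, 12.3 cRPKM in Col0 and 21.1 in asap), the DNA polymerase lambda gene AT1G10520 (r = 0.961, 0.80 and 1.92) and AT1G51405, annotated as myosin-like (r = 0.961, 1.57 and 2.83). Next came the chromatin remodeller CLSY3 (0.956), a GTP-binding protein gene AT1G30580 (0.947), POLD3, a subunit gene of DNA polymerase delta (0.945), AT1G80280 (0.945) and 4CL3 of the phenylpropanoid pathway (0.941). They were picked for this likeness, which is given without a test.

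Other genes of the same machinery were followed as lists, whose counts stand against 15.2%, 12.9% and 25.6% of all genes called higher in sr45, sap18sr45 and asap, and 16.5%, 14.2% and 26.0% called lower. Of 12 further A- and B-type cyclins 2 were tested, and CYCA3-2 rose in asap by 0.55 ± 0.19, from 10.7 to 17.6 cRPKM (edgeR, adjusted p = 0.0161), while CYCA3-3 had 0 counts throughout. That call ended without either Col0 library or without asap replicate 2 (adjusted p up to 0.128). Of 14 other kinases and direct regulators 7 were tested: 0 were called in sr45, 1 rose in sap18sr45 and 3 rose in asap, with medians of 0.54, 0.64 and 0.51. The 1 of 7 in sap18sr45 is close to the 12.9% of all genes. Those in asap were CDKD-3, a kinase that activates other kinases of the family, WEE1, which inhibits them by phosphorylation, and KRP7, an inhibitor protein.

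Among those called in asap, the inhibitors WEE1 and KRP7 showed the wider changes. SMR2 and SMR8, further inhibitor genes of this list, were not called in any mutant. In asap they differed from Col0 by -0.24 ± 0.29 and 0.36 ± 0.42 (edgeR, adjusted p = 0.512 and 0.491). KRP7 had 1.59 and 3.41 cRPKM in Col0 and 10.49 and 8.28 in asap, and rose by 1.79 ± 0.40 (edgeR, adjusted p = 0.000429), a call that held with any 1 library left out. WEE1 had 0.41 and 0.67 cRPKM in Col0 and 3.05 and 1.88 in asap, and rose by 2.05 ± 0.56 (edgeR, adjusted p = 0.00304), a call that ended without Col0 replicate 1 (0.0818). In sr45 replicate 1 WEE1 rested on 1 count. CDKD-3 rose by 0.71 ± 0.25 in sap18sr45 and 0.79 ± 0.25 in asap (edgeR, adjusted p = 0.0333 and 0.00982), and both calls ended without either Col0 library.

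Of 13 genes of the spindle, kinetochore and cytokinesis 7 were tested, with 0 called in sr45, 3 higher in sap18sr45, and 2 higher and 1 lower in asap (medians 0.17, 0.21 and 0.56). In asap, 2 of 7 is 28.6%, beside 25.6% of all genes called higher, and 26.0% of all genes were called lower. KNOLLE, the syntaxin of the forming cell plate, had 9.49 and 6.81 cRPKM in Col0, 7.12 and 13.57 in sr45, 14.59 and 13.45 in sap18sr45, and 15.83 and 19.47 in asap. As for NACK1, sr45 replicate 1 was within or beside the Col0 range and sr45 replicate 2 above it. KNOLLE was higher in asap by 0.94 ± 0.22 (edgeR, adjusted p = 0.000887) and TPX2, a spindle assembly factor, by 1.11 ± 0.29 (0.00209), and both calls held with any 1 library left out. In sap18sr45 KNOLLE, TPX2 and the centromeric histone CENH3 were called higher by 0.71 ± 0.22, 0.79 ± 0.29 and 1.19 ± 0.38 (edgeR, adjusted p = 0.0171, 0.0423 and 0.0182). Each of these 3 calls was lost in 3 or 4 of the 8 fits with a library left out. MAP65-6, a microtubule-associated protein, fell by 0.46 in asap on the log2 scale (edgeR, adjusted p = 0.000831).

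Of 9 regulators of the step from G1 to S phase 2 were tested. Of these, 0, 1 and 2 were called higher in sr45, sap18sr45 and asap, where 15.2%, 12.9% and 25.6% of all genes were. The cyclin CYCD1-1 was higher in asap by 0.43 ± 0.15 (edgeR, adjusted p = 0.0162). That call did not hold in every fit with a library left out (log2 change 0.35 to 0.49). The E2F-family factor E2FC was higher by 0.91 ± 0.27 in sap18sr45 and 1.11 ± 0.27 in asap (edgeR, adjusted p = 0.0119 and 0.00106), of which the second held with any 1 library left out and the first was lost in 3 of 8 such fits. Of 5 S phase genes 3 were tested, and 3, 2 and 3 of them were higher in sr45, sap18sr45 and asap, where 15.2%, 12.9% and 25.6% of all genes were. Several of these calls rested on single libraries. In sr45, MCM2 lost its call in 6 of 8 fits with a library left out and in DESeq2 (adjusted p = 0.116), PCNA1 in 2, those without Col0 replicate 1 or sr45 replicate 2, and MCM5 in 1, that without Col0 replicate 2. In sap18sr45, MCM5 lost its call without any 1 library of Col0 or sap18sr45 and in DESeq2 (adjusted p = 0.154), and PCNA1 without Col0 replicate 1. In asap, MCM2 and MCM5 lost theirs without Col0 replicate 2, whereas PCNA1 kept it in all 8. PCNA1, the sliding clamp of DNA polymerase, had 2.75 and 4.43 cRPKM in Col0, 7.46 and 9.25 in sr45, 8.39 and 8.65 in sap18sr45, and 13.17 and 9.99 in asap, so that its mutant libraries were all above Col0 already in sr45. Of 10 subunits and activators of the anaphase-promoting complex 4 were tested, with 0, 0 and 1 called higher. That 1 was APC5 in asap (0.57 ± 0.22, edgeR, adjusted p = 0.0283), a call that ended without either Col0 library or asap replicate 2 (adjusted p up to 0.159).

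**Figure D5:**
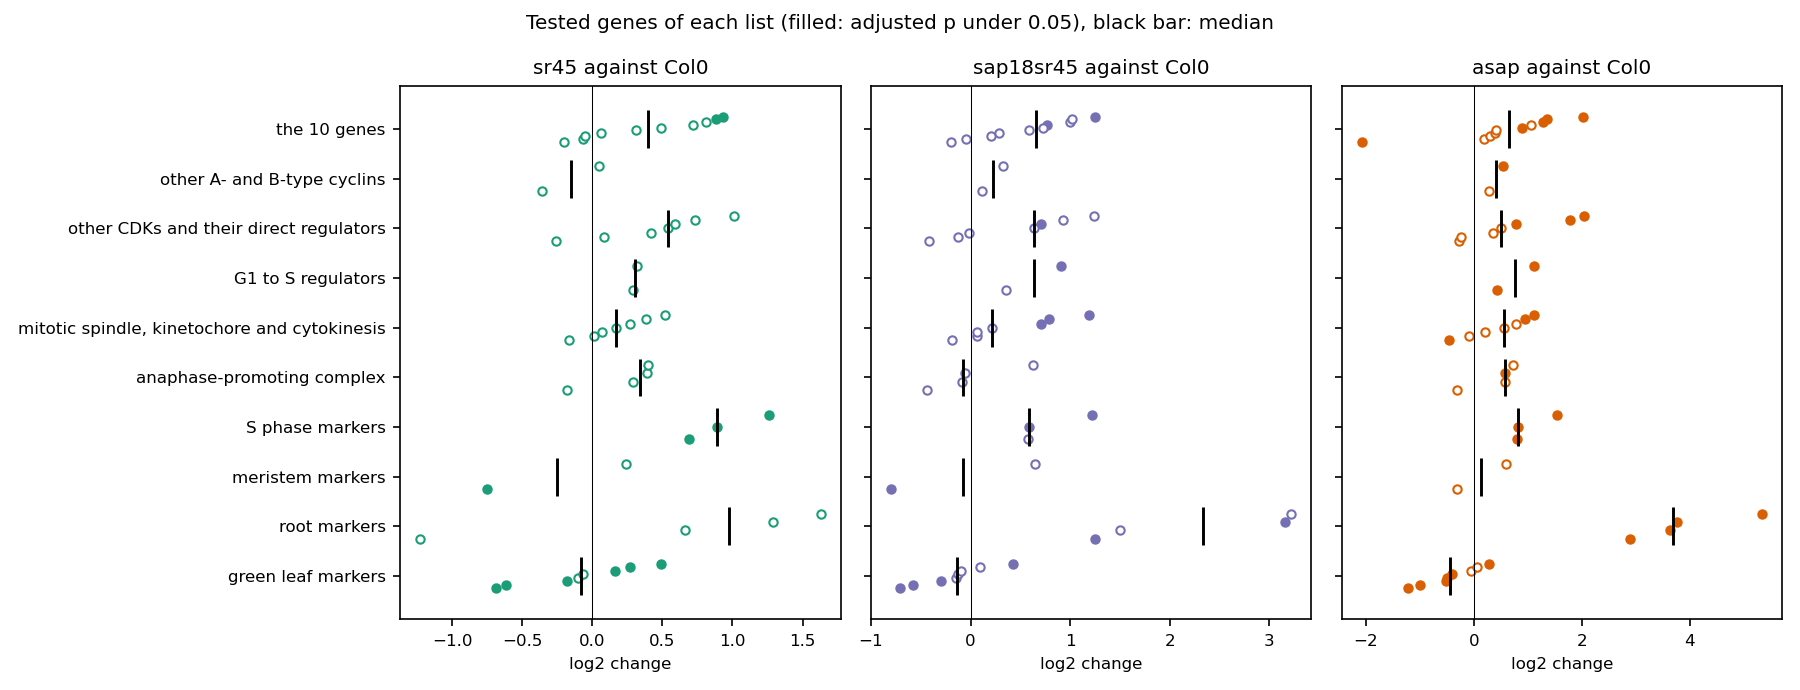
Log2 change against Col0 (x axis, own scale in each panel) of every tested gene in the 10 members and in each list (rows) for sr45, sap18sr45 and asap; points are genes, filled where the adjusted p is under 0.05, and black bars are medians. The members' medians are 0.40, 0.66 and 0.66.

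Markers of other cells moved with the genotypes as well. Of 4 root markers, 0 were called in sr45, 2 rose in sap18sr45 and 4 rose in asap, where 15.2%, 12.9% and 25.6% of all genes were called higher. NRT2.1 had at most 7 counts in a library outside asap and 10 and 32 in asap. It passed the filter on low counts only through asap, and EXPA18 (11 and 46 counts in asap) needed those libraries too. EXPA7 passed only through sap18sr45 (18 and 10 counts) and asap (9 and 23), with at most 3 counts in a library of Col0 or sr45. The list was also chosen with earlier results known, so its counts are a description and not a test. EXPA7, a root hair expansin gene, had 3 and 0 counts in Col0, and the nitrate transporter gene NRT2.1 had 1 and 0, so the size of their changes is uncertain. The call of EXPA7 in sap18sr45 was lost in 3 of 8 fits with a library left out, and that of EXPA18 in asap in 2. The peroxidase gene PER3, with 2.61 and 2.08 cRPKM in Col0 and 43.09 and 30.12 in asap, kept its calls in all 8. Their summed level was 3.67 and 4.93 cRPKM in sr45 and 9.63 and 7.98 in sap18sr45, beside the Col0 and asap values given above. Of 8 green leaf markers 3 rose and 3 fell in sr45, 1 rose and 3 fell in sap18sr45, and 1 rose and 5 fell in asap, where 16.5%, 14.2% and 26.0% of all genes were called lower. In sr45, 1 of the 3 rises (LHCB1.1) and 1 of the 3 falls (PSAF) were each lost in 4 of 8 fits with a library left out. Among the meristem genes, CLV1, a receptor kinase of the shoot meristem, fell by 0.75 in sr45 and by 0.80 in sap18sr45 on the log2 scale (edgeR, adjusted p = 0.00112 and 0.00035). In asap its difference from Col0, -0.31, was not called (adjusted p = 0.104), and it was higher than in sap18sr45 by 0.49 (adjusted p = 0.0238). STM, which keeps meristem cells undifferentiated, was not called in any mutant, with differences of 0.24 in sr45, 0.65 in sap18sr45 and 0.59 in asap (edgeR, adjusted p = 0.587, 0.0667 and 0.0679), and its libraries of sap18sr45 and asap were above both Col0 libraries. Their part in the changes of the 10 members was not tested.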

How the data were processed

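RNA-seq libraries from 8 samples of whole seedlings, 2 for each of Col0, sr45, sap18sr45 and asap, were analysed from a table of the whole series. The authors mapped reads with vast-tools to a library based on the TAIR10 genome and deposited raw counts per gene, not normalized, beside cRPKM, an RPKM corrected for mappability. The labels name RNA from 100 mg of seedlings and 2 µg of RNA per library. The table was read in part: 9998 loci of chromosomes 1 and, in part, 2, of which 9536 had values. These loci, of all kinds, included 27.6% of the protein-coding loci of the annotation. Gene counts refer to these loci, and SAP18 and ACINUS were not analysed here. One line without a locus held at most 0.00281% of a library and was left out.

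The tests ran in edgeR 4.0.16 under R 4.3.3: filterByExpr left 5261 genes, libraries were scaled by TMM (factors 0.956 to 1.09), and 1 robust quasi-likelihood model was fitted to all 8 libraries (4 residual degrees of freedom, common biological coefficient of variation 8.2%). The 6 contrasts were tested 2-sided, with Benjamini-Hochberg adjustment over all 5261 genes and a threshold of 0.05. SEs were derived from the F statistic and the log2 change. Intervals cover 95%, and intervals on count ratios cover counting error only. The steps were tested on simulated data. Alternatives used DESeq2 1.42.0, limma 3.58.1 on log2(cRPKM + pseudocount), voom, other scalings and filters, the study's own fold rule, a replicate block and each library left out.

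All 10 members were named, some of the list genes, called or not, and the 8 loci with the highest r to the members' mean. The members and lists were chosen with earlier results of these data known. Positions and sequences came from RefSeq (TAIR10.1), in which the nuclear chromosomes match TAIR10, and upstream windows end before the annotated gene start.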

Additional observations from a re-analysis of the deposited data

Results flagged for a closer look

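The effect of the asap genotype differed from that of another mutant, by a direct test between them, for 3 members. Such calls were common over all genes tested. In asap against sap18sr45, 15.4% of all genes were called higher and 16.7% lower. In asap against sr45, 12.7% were called higher and 14.5% lower. By their number, the calls among the members do not stand out from this background. CYCA1-2 was lower in asap than in sap18sr45 by -3.07 and than in sr45 by -2.8 on the log2 scale. CYCB2-4 was higher in asap by 1.0 against sap18sr45 and by 1.21 against sr45, and CDKB2-1 by 0.83 against sr45. Of these 5 differences, only those of CYCA1-2 kept their call (edgeR, adjusted p under the threshold) with every library left out in turn.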

How the results depend on the processing

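Counts of members called were 2 in sr45, 2 in sap18sr45 and 5 in asap against Col0, and 0, 2 and 3 in sap18sr45 against sr45, asap against sap18sr45 and asap against sr45. With 1 library left out these ranged over 0 to 2, 1 to 4, 3 to 6, 0 to 0, 1 to 3 and 1 to 3, and the counts over all genes (1669, 1425, 2713, 295, 1689 and 1433) over 1023 to 1975, 758 to 1845, 1952 to 2817, 112 to 472, 988 to 1905 and 1001 to 1632. In sr45, 0 members were called by DESeq2, by limma on log2(cRPKM + 0.5) or log2(cRPKM + 1), by voom or by the study's rule. DESeq2 called 1 in sap18sr45, 1 in asap against sap18sr45 and 1 in asap against sr45. Limma with 0.5 called 1 in asap against sap18sr45, and voom called 1 in asap against sr45. A fit on the 4 libraries of Col0 and sap18sr45 alone gave 5 members and 2168 genes. The study's rule asks for 50 counts and a cRPKM over 5. CYCA1-1, CYCA1-2, CYCB2-3, CYCB3-1 and NACK1 do not reach both in both libraries of any genotype. The rule called 0 members in sap18sr45, 1 in asap (CYCB2-4) and 0 in asap against either mutant, with 140, 102, 438, 10, 156 and 108 genes in all. In sap18sr45 against sr45, limma called 162 and 160 genes.

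The replicate numbers did not pair the libraries (correlations of replicate deviations from -0.0357 to 0.0435). With the replicate number as a block, 2, 2, 5, 0, 2 and 3 members were called. Without TMM scaling the share of calls that were higher went from 49.6% to 62.7% in asap, from 48.1% to 67.1% against sap18sr45, from 46.7% to 71.7% against sr45, and from 44.7% to 57.1% in sap18sr45 against sr45. Uncalled differences changed sign with a library left out: in sr45, CYCA3-4 (-0.42 to 0.14, positive without sr45 replicate 1), CDKB2-1 (-0.12 to 0.3, negative without Col0 replicate 2) and CDKB2-2 (-0.78 to 0.31, positive without Col0 replicate 1 or sr45 replicate 1, and 0.02 with upper-quartile scaling), and in sap18sr45 CYCB2-3 (-0.23 to 0.11, positive without Col0 replicate 2). The causes were not tested. CYCA2-3 passed in asap without TMM scaling (0.47, edgeR, adjusted p = 0.042). With 3 counts worth up to 2.316 CPM, changes in CYCA1-2 and CYCB3-1 rest on few reads.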
